A study of Mus musculus with 4 samples.

Results

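The matrix proteases and their inhibitors were followed in whole hearts of mouse embryos at embryonic day 9.5, as all genes of the array named Mmp, Adam, Adamts, Adamts-like (Adamtsl) or Timp with a number. The names were matched in the array's gene annotation among probes with 1 gene symbol, with 1 probe per gene, and gave 73 of the 16675 genes measured: 22 Mmp, 28 Adam, 16 Adamts, 4 Adamtsl and 3 Timp genes (Timp1, Timp3 and Timp4; Timp2 was not analysed here). The study compared 2 control pools, labelled wild-type, with 2 pools of Salv CKO hearts, to find genes under Hippo control during heart formation. Salv CKO is a conditional knockout of Salvador (Sav1), a scaffold protein of the Hippo kinase cascade. What share of the heart cells lost it is not known. All pools were of a C57bl/6 x129 hybrid strain. Each pool combined hearts and was read on 1 one-colour array; how many hearts a pool held, and which Cre line made the conditional knockout, could not be read from the labels.

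Matrix metalloproteinases (Mmp) are zinc enzymes that cut collagens and other matrix proteins, either secreted or held at the cell surface. Adam proteins are membrane-anchored relatives, several of which release the outer parts of receptors and ligands such as Notch and the ErbB ligands; Adamts proteins are secreted and cut proteoglycans such as versican or trim procollagen, and Adamts-like proteins share their domains without the protease. Timp proteins block these enzymes. In the embryonic heart, cleavage of versican and other parts of the cardiac jelly accompanies trabeculation and the remodelling of the endocardial cushions.

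Levels are quantile-normalised log2 intensities, in the order control 1, control 2, Salv CKO 1 and Salv CKO 2, and a log2 level of 4 (intensity 16) was taken as the limit of background. Differences are Salv CKO minus control in log2 units, each with the standard error (SE) of the limma fit and n = 2 pools per group; a gene is called when limma's two-sided p, adjusted over all 16675 genes by the Benjamini-Hochberg method, was under 0.05. The deposited intensities had medians of 77.5 and 101 in the controls and 71.0 and 76.1 in Salv CKO. Pearson's r of log2 levels across all probes, which are not independent replicates, was 0.946 for the control pair and 0.947 for the Salv CKO pair. Pairs of unlike genotype gave 0.937 to 0.942. Sav1 itself read 9.56, 9.30, 9.19 and 9.13, a difference of -0.27 ± 0.13 (adjusted p = 0.266, limma); whether its probe lies in the deleted part is not known, so the probe does not check the labels. An exact permutation test of 2 against 2 pools cannot go below p = 0.333, so the calls depend on limma's pooling of the spread over genes. The labels describe the pools as biological replicates.

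Of the 73 genes, Adamts18 rose, Mmp15 and Mmp23 fell, and 70 did not pass the test. That is 4.11% of the family called, where 10.6% of all genes tested were called (4.92% higher and 5.70% lower), so calls were no more frequent among matrix proteases than across the array. At an unadjusted p under 0.05 there were 16 of 73 (7 higher and 9 lower), 21.9% against 26.7% of all genes. Leaving out any 1 of the 4 arrays, setting a floor of 16 (the background limit) or 64, or dropping limma's intensity trend ended all 3 calls, with 7 to 14 members at an unadjusted p under 0.05. With any 1 array left out, limma called none of the 16675 genes, and 3172 to 3438 were at an unadjusted p under 0.05.

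A total of 47 members were above background on all 4 arrays, 15 on some and 11 on none. In the 47, the median difference was -0.08, beside -0.04 for all genes above background, and the median size of the difference was 0.299 beside 0.296. The 2 groups did not overlap for 31 of the 47, where 61.2% of all genes above background did not overlap. Salv CKO lay below both controls for 23 of them (33.4% of all genes above background) and above both for 8 (27.8%). This split moved with the scaling: 34 below and 3 above as deposited, 28 and 6 after median centring, and 18 and 11 after division by the 75th percentile. As deposited, where the median of all genes was -0.44, Mmp2, Adam9, Adam10, Adam11, Adam19, Adamtsl2, Adamtsl4, Timp1 and Timp3 were called lower along with Mmp15 and Mmp23. Across these 4 scalings, 24 to 26 of the 47 lay below the median difference of all genes above background.

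**Figure D1:**
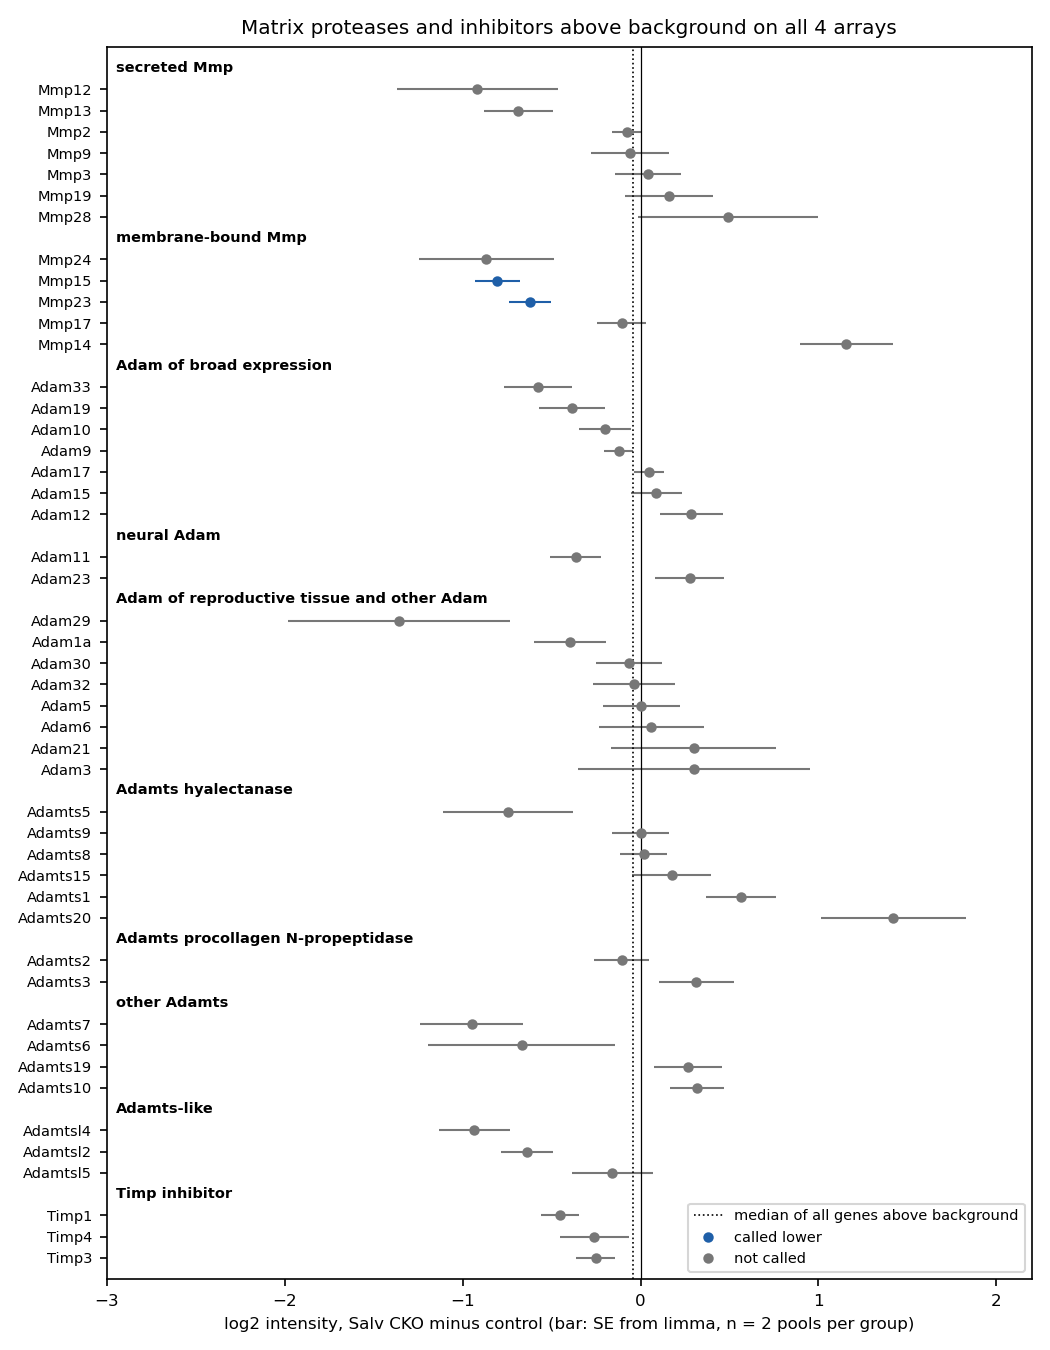
Difference in log2 intensity (Salv CKO minus control, horizontal axis) for each of the 47 members above background on all 4 arrays, by role; points are limma estimates, bars are SE with n = 2 pools per group, and the dotted line is the median of all genes above background. Mmp15 and Mmp23 (blue) were called lower, the 3 Timp and 3 Adamtsl genes lie left of 0 with quantile scaling, and Mmp14 (1.16) and Adamts20 (1.42) lie farthest right.

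The 250 bases before the RefSeq start of the 3 called genes are shown because they are the stretches in which a Tead site, the DNA site through which Yap acts downstream of Salvador, was searched (mouse build GRCm38.p6). The letters of the Tead core are GGAATG on either strand. Neither these letters nor those of an AP-1 site, TGACTCA on either strand, are in the 3 windows below. Of the starts listed for Mmp23, the upstream one is shown.

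Mmp15 (chr8:95352046-95352295, plus strand): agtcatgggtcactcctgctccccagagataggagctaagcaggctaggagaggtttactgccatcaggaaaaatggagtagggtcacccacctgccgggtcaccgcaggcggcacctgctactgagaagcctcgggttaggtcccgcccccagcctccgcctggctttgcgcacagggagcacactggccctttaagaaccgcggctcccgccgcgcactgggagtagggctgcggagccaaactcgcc
Mmp23 (chr4:155653385-155653634, minus strand): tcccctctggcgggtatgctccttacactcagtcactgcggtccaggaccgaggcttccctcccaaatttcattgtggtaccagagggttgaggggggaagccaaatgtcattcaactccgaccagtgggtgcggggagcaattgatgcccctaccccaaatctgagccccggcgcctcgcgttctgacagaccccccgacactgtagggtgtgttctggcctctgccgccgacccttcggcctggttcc
Adamts18 (chr8:113848840-113849089, minus strand): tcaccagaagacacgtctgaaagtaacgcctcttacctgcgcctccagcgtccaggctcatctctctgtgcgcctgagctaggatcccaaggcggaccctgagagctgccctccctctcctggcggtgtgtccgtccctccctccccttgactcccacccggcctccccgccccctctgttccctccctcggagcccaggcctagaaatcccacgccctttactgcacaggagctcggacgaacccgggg

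RefSeq promoters matched 43 of the 73 members by symbol (48 windows). The Tead letters were in 2 of these 48 windows, 4.17%, where 12.6% of the 32851 promoter windows of the table held them. The 2 were Timp1 and Adam19, and the Timp1 window is printed below with these letters in capitals. The AP-1 letters, a motif added after the data were seen because it is a textbook element of Mmp promoters, were in 9 of the 48 windows (18.8%, against 4.46% of all windows): Adam19, Adam29, Mmp1a, Mmp1b, Mmp3, Mmp7, Mmp10, Mmp12 and Mmp13. Of these, 7 are neighbours in the row of Mmp genes on chromosome 9, so they are not separate cases, and the Mmp13 window shows the letters, in capitals, starting 35 bases before the start. A match describes the letters only.

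Timp1 (chrX:20869916-20870165, plus strand): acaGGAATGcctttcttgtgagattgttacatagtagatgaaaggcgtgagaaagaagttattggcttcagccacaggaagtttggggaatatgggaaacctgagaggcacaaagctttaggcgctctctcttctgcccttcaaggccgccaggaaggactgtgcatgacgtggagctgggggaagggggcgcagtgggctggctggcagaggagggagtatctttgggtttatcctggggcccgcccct
Mmp13 (chr9:7272264-7272513, plus strand): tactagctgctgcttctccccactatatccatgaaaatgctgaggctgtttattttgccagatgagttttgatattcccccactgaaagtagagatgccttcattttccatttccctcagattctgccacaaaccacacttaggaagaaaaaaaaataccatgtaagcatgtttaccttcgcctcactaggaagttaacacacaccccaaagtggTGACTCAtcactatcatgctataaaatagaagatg

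Among the 7 membrane-bound Mmp genes, 2 fell and none rose, where 5.70% of all genes fell and 4.92% rose. Of the 5 above background on all arrays, 4 lay below their control mean and 1 above. Of all genes above background, 53.8% lay below their control mean. Mmp15 (MT2-MMP), a transmembrane collagenase, read 10.05, 10.18, 9.43 and 9.19. Both Salv CKO arrays lay below both controls. It fell by 0.80 ± 0.12 (adjusted p = 0.0247, limma), 1.75-fold higher in control. Mmp23, a type II membrane Mmp, read 8.80, 8.88, 8.21 and 8.22, again with no overlap. Its level fell by 0.62 ± 0.12 (adjusted p = 0.0406, limma), 1.54-fold higher in control. Both kept a negative difference in 15 of 15 alternatives and were called in 8 of them. Floors, the filter, the probe mean and the moderation settings left both differences unchanged, so only scaling and left-out arrays could move them. 

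Mmp14 (MT1-MMP), the main cell-surface activator of proMmp2, did not pass the test. It read 6.52, 6.08, 7.31 and 7.61, with both Salv CKO arrays above both controls. The difference was 1.16 ± 0.26 (adjusted p = 0.0591, limma), under the threshold of 0.05 in 3 of 15 alternatives, one of them the scaling by the 75th percentile. Mmp16 (MT3-MMP), another activator of proMmp2, read 2.35, 4.18, 6.02 and 6.49, so that only 1 control array was above background. Its measured difference was 2.99 ± 0.72 (adjusted p = 0.0673, limma), from a control mean below the limit; it was 2.17 with the floor of 16 and 0.26 with the floor of 64. A second, dimmer Mmp16 probe, above background on 1 array, gave -0.94 ± 0.58.

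The other members of the class did not pass the test. Mmp24 (MT5-MMP), known from neural tissue, read 6.23, 5.94, 4.88 and 5.57, a difference of -0.87 ± 0.38 (adjusted p = 0.237, limma). Its second probe, above background on 3 arrays, gave 1.10 ± 0.61. Mmp17 (MT4-MMP), anchored by a lipid tail, read 8.12, 8.02, 7.96 and 7.97, a difference of -0.11 ± 0.14 (adjusted p = 0.689, limma). Mmp25 was above background on 2 arrays, at 3.78, 4.04, 4.64 and 2.60.

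**Figure D2:**
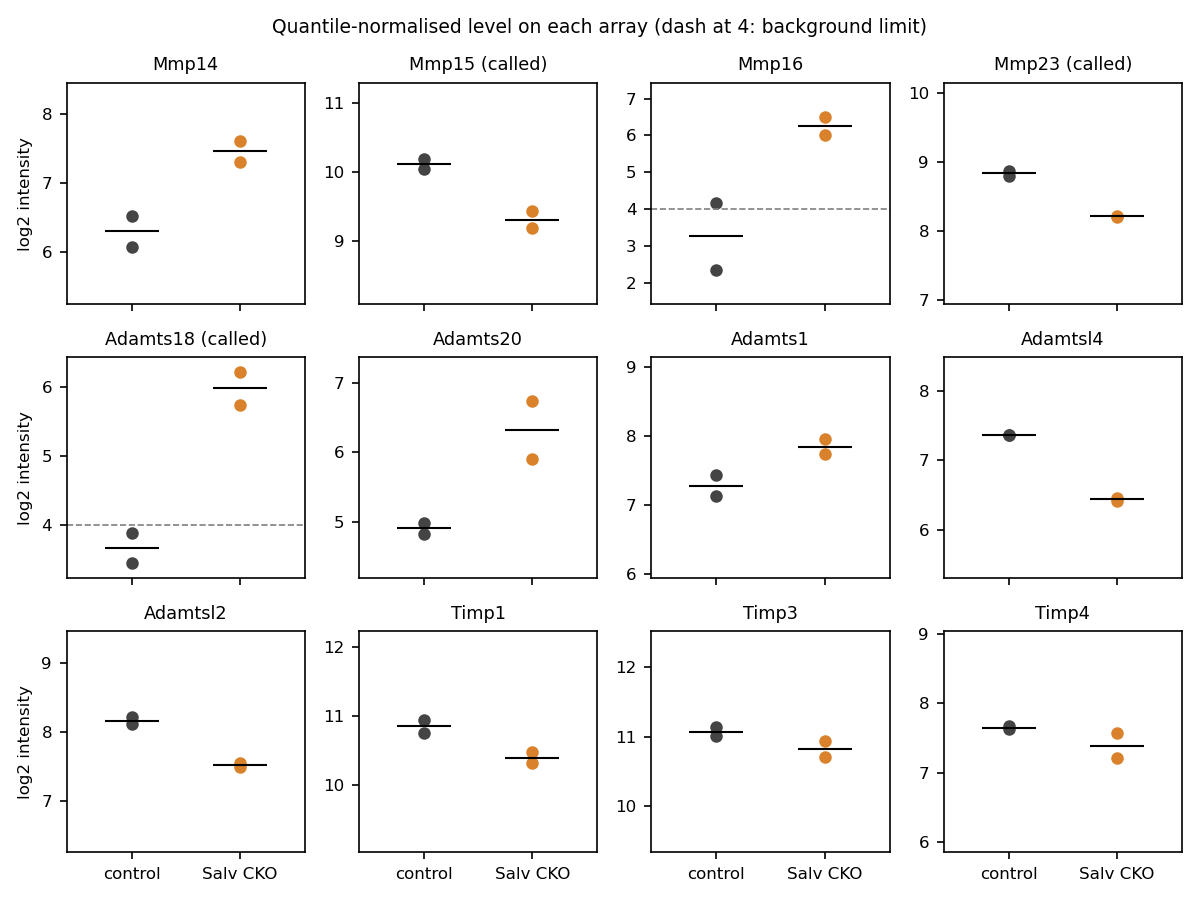
Log2 intensity on each of the 4 arrays for 12 members (dots; horizontal lines are group means, n = 2 pools per group; dashes mark the background limit of 4; axis ranges differ between panels). Mmp15 and Mmp23 sit lower in Salv CKO and Adamts18 rises from below the limit, while Mmp14 and Mmp16 lie higher and the 3 Timp genes lower in both Salv CKO arrays without passing the test.

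None of the 15 secreted Mmp genes rose or fell, and 7 were above background on all arrays. Mmp2 (gelatinase A), which Mmp14 activates, read 11.12, 11.15, 11.11 and 11.00. The difference of -0.08 ± 0.08 (adjusted p = 0.599, limma) was close to the all-gene median of -0.04, although the groups did not overlap. Mmp9 (gelatinase B) read 6.60, 6.60, 6.53 and 6.55, a difference of -0.06 ± 0.22 (adjusted p = 0.900, limma). Mmp13 (collagenase 3) read 7.62, 7.95, 7.09 and 7.10, with no overlap and a difference of -0.69 ± 0.19 (adjusted p = 0.0965, limma). Mmp12 (macrophage elastase) read 5.63, 5.94, 4.41 and 5.33, a difference of -0.92 ± 0.45 (adjusted p = 0.284, limma). Mmp3 (stromelysin 1) read 7.31, 7.22, 7.41 and 7.21, a difference of 0.04 ± 0.19 (adjusted p = 0.914, limma). Mmp11 (stromelysin 3), which is cut by furin inside the cell, read 3.56, 4.77, 4.99 and 5.11, a difference of 0.88 ± 0.56 (adjusted p = 0.397, limma). Mmp10, Mmp1b, Mmp20 and Mmp21 were above background on no array.

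None of the 28 Adam genes was called. Of the 9 of wide expression, several are active sheddases. Adam17 (TACE), which releases tumour necrosis factor and ErbB ligands, read 10.18, 10.19, 10.27 and 10.19, a difference of 0.05 ± 0.08 (adjusted p = 0.784, limma). Adam10, the main sheddase of Notch, read 10.64, 10.30, 10.38 and 10.17, a difference of -0.20 ± 0.15 (adjusted p = 0.468, limma). A dimmer Adam10 probe, above background on 3 arrays, gave 1.05 ± 0.49, so the probes disagreed in sign. Adam9 read 12.22, 12.07, 12.00 and 12.05, a difference of -0.12 ± 0.08 (adjusted p = 0.407, limma), and Adam15 read 10.58, 10.37, 10.72 and 10.40, a difference of 0.09 ± 0.14 (adjusted p = 0.753, limma). Differences within these errors were not detectable with 2 pools per group.

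Adam12, Adam19 and Adam33 are close relatives. Adam19, needed for endocardial cushion and valve formation in mice, read 10.05, 9.80, 9.31 and 9.76, a difference of -0.39 ± 0.19 (adjusted p = 0.273, limma). Both Salv CKO arrays lay below both controls. Adam12 read 7.63, 7.96, 8.04 and 8.12, a difference of 0.29 ± 0.18 (adjusted p = 0.384, limma), which turned to -0.10 as deposited. Adam33 read 8.01, 8.31, 7.44 and 7.72, a difference of -0.58 ± 0.19 (adjusted p = 0.141, limma). Adam8, of white cells and bone, differed mainly by its first control array, at 3.97, 6.80, 6.82 and 6.42, with 1.23 ± 0.95 (adjusted p = 0.484, limma). Without that array the difference was -0.18.

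Adam11 and Adam23, known from the nervous system, lack a working protease and bind integrins or secreted ligands. Adam11 read 9.58, 9.55, 9.37 and 9.03, and Adam23 read 6.97, 6.87, 7.24 and 7.15. Their differences were -0.36 ± 0.14 and 0.28 ± 0.19 (adjusted p = 0.193 and 0.439, limma), with no overlap in either. Among the 16 Adam genes of reproductive tissue and others, 3 were above background on no array. Adam24 was above background in Salv CKO only, at 3.08, 2.81, 4.34 and 4.88, a difference of 1.66 ± 0.54 (adjusted p = 0.134, limma). With both controls set to the chosen background limit, its level was 1.53-fold higher in Salv CKO. Adam4 read 5.07, 3.44, 6.30 and 5.66, a difference of 1.73 ± 0.66 (adjusted p = 0.182, limma). Dimmer Adam4 probes gave 0.73 ± 0.51 (above background on 3 arrays) and -0.13 ± 1.58 (on no array). Adam29 read 5.47, 6.63, 5.30 and 4.10, a difference of -1.36 ± 0.62 (adjusted p = 0.254, limma).

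Of the 7 Adamts proteases that cut versican and aggrecan, 6 were above background on all arrays and none was called. Adamts20, known for versican processing in the neural crest, read 4.82, 4.98, 6.74 and 5.90, with no overlap and a difference of 1.42 ± 0.41 (adjusted p = 0.0999, limma). Adamts1, which cuts versican in the myocardium, read 7.43, 7.13, 7.74 and 7.95, a difference of 0.56 ± 0.20 (adjusted p = 0.151, limma). Its second probe gave 0.19. Adamts9 read 7.65, 7.72, 7.76 and 7.62, a difference of 0.00 ± 0.16 (adjusted p = 1.00, limma). Adamts5 read 7.62, 8.01, 7.55 and 6.60, a difference of -0.74 ± 0.36 (adjusted p = 0.282, limma), with its lowest level on the second Salv CKO array. Dimmer Adamts5 probes gave 0.74 ± 0.92 (above background on 1 array) and 0.03 ± 0.85 (on no array), so their opposite sign says little. Adamts8 and Adamts15 differed by 0.02 and 0.17. Adamts4 was above background on no array, with 2.91, 3.44, 3.86 and 3.38.

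The only member that rose was Adamts18, one of 7 other Adamts genes. It read 3.88, 3.44, 5.73 and 6.21, so that both controls were not above background and both Salv CKO arrays were. The measured difference was 2.31 ± 0.44 (adjusted p = 0.0392, limma). With both controls set to the chosen background limit of 16, the level was 3.93-fold higher in Salv CKO, a value that depends on that limit. A second Adamts18 probe gave 1.57 ± 0.86 (adjusted p = 0.342, limma) and was above background on 1 array. The difference was positive in 15 of 15 alternatives and called in 6, and it ranged from 0.11 to 2.55. The filter and the moderation settings cannot change this difference, and a floor cannot reverse it, so the count of signs adds little. The difference was 1.97 with the floor of 16 and 0.11 with the floor of 64 (adjusted p = 0.0619 and 0.690, limma). The mean of both probes, 1.94, and the replicate block also ended the call (adjusted p = 0.118 and 0.0577, limma). Adamts7, which cuts cartilage oligomeric matrix protein, read 6.27, 6.18, 5.30 and 5.25, a difference of -0.95 ± 0.29 (adjusted p = 0.117, limma). Adamts10, a partner of fibrillin, read 10.16, 10.32, 10.37 and 10.75, with 0.32 ± 0.15 (adjusted p = 0.265, limma). Adamts6 read 6.31, 5.46, 5.73 and 4.70, and its groups overlapped. The procollagen trimming enzymes Adamts2 and Adamts3 differed by -0.11 and 0.31, and neither was called.

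Adamts-like proteins bind fibrillin microfibrils. The 3 of 4 above background on all arrays had both Salv CKO arrays below both controls, as had 33.4% of all genes above background, and none passed the test. Adamtsl4 read 7.37, 7.37, 6.45 and 6.42, a difference of -0.93 ± 0.20 (adjusted p = 0.0503, limma), and it passed in 5 of 15 alternatives. Adamtsl2 read 8.22, 8.11, 7.55 and 7.50, a difference of -0.64 ± 0.15 (adjusted p = 0.0626, limma). Adamtsl5 read 6.70, 6.58, 6.55 and 6.42, a difference of -0.16 ± 0.23 (adjusted p = 0.716, limma).

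All 3 inhibitors lay lower on both Salv CKO arrays than on either control array, as did 33.4% of all genes above background, and none was called. Timp1, a secreted inhibitor of most Mmp enzymes, read 10.93, 10.76, 10.47 and 10.31, a difference of -0.45 ± 0.11 (adjusted p = 0.0642, limma), and it passed in 4 of 15 alternatives. Timp3, which binds the matrix and also blocks Adam17 and several Adamts proteases, read 11.14, 11.01, 10.93 and 10.71, a difference of -0.25 ± 0.11 (adjusted p = 0.230, limma). Its second probe gave 0.41 ± 0.44, the opposite sign. Timp4, the inhibitor best known from heart, read 7.67, 7.63, 7.57 and 7.22, a difference of -0.26 ± 0.19 (adjusted p = 0.471, limma).

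Probes of 1 gene did not always move together. Of 20 members with several probes, 6 had at least 2 above background on all arrays, and 2 of these, Adamts2 and Timp3, had probes of opposite sign. The median range between probes in the 6 was 0.249.

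Beside the proteases, a list held genes that activate or restrain them and proteins they cut. The list was chosen with earlier results of these data known, so its counts are not independent of them. Of 70 regulators and substrates measured, 4 rose and 15 fell (10.6% of all genes were called), and their median difference was -0.15 in those above background. Of 12 genes listed for the activation or cell-surface control of the proteases, 4 fell. Furin, the convertase that removes the propeptide of Mmp14, Mmp15 and the Adam and Adamts enzymes, read 12.27, 12.50, 11.62 and 11.66 and fell by 0.75 ± 0.10 (adjusted p = 0.0170, limma). Pcsk6, a related convertase, fell by 1.04 ± 0.17 (adjusted p = 0.0274, limma). Tspan33, a partner of Adam10, and Tmem2, listed here though a cell-surface hyaluronidase, fell by 0.68 and 0.63. Reck, a membrane inhibitor of Mmp14 and Mmp2, differed by 0.06 ± 0.45 (adjusted p = 0.955, limma). Of 8 genes of the plasminogen system and other inhibitors 1 rose, Plat, tissue plasminogen activator, by 0.61 ± 0.08 (adjusted p = 0.0191, limma). This rise moved with the scaling, to 0.11 as deposited and 0.38 after median centring. None of 5 astacin procollagen proteases was called.

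Of 24 matrix substrates, 3 rose and 8 fell, where 4.92% of all genes rose and 5.70% fell. Of all genes above background on all arrays, 14.0% were called. Col2a1, the fibrillar collagen of cartilage and embryonic mesenchyme, fell by 1.37 ± 0.10 (adjusted p = 0.00717, limma). The basement membrane collagens Col4a1 and Col4a2 fell by 1.08 ± 0.10 and 0.89 ± 0.10 (adjusted p = 0.00985 and 0.0124, limma). Vcan, versican, the substrate of the Adamts hyalectanases, read 10.70, 10.98, 9.99 and 10.16 and fell by 0.76 ± 0.13 (adjusted p = 0.0300, limma). Dcn, decorin, read 7.65, 7.23, 9.07 and 8.77 and rose by 1.48 ± 0.21 (adjusted p = 0.0205, limma). Hspg2, perlecan, rose by 0.66 ± 0.12 and Col3a1 by 0.49 ± 0.08 (adjusted p = 0.0354 and 0.0287, limma). As deposited, without scaling between arrays, Col3a1 differed by -0.04, Hspg2 by 0.15 and Dcn by 1.09. Of 21 membrane substrates of Adam proteases, 3 fell and none rose: Cdh5, VE-cadherin, by 0.77, Sdc4, syndecan 4, by 0.75 and Prnp, the prion protein, by 0.42. The 19 calls fell to 2 with the floor of 16 and to none with the trend dropped or with any 1 array left out.

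**Figure D3:**
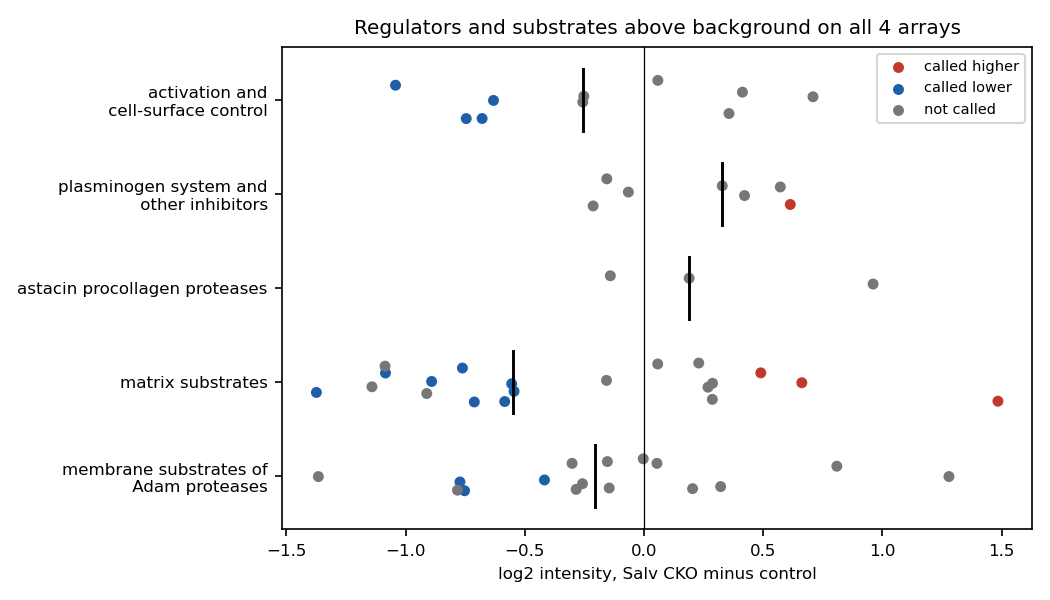
Difference in log2 intensity (Salv CKO minus control, horizontal axis) for the regulators and substrates above background on all 4 arrays; each dot is a gene, coloured by its call, with vertical jitter only, and each black line is the median of its list. Furin and Pcsk6 are among the 4 lower calls of the top list, and the matrix substrates hold calls in both directions, from Col2a1 at -1.37 to Dcn at 1.48.

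The tissue is labelled whole heart, and all 9 cardiac muscle markers measured were above background on all arrays. Markers of other cell types also differed between the groups. The marker lists were likewise chosen with earlier results of these data known. Across all genes tested, 4.92% rose and 5.70% fell, and 14.0% of genes above background on all arrays were called. Of 6 somite markers 3 rose, and their summed level was 8.85 to 8.99 in the controls and 11.82 in both Salv CKO arrays. Neural crest markers (4 of 7 rose) summed to 13.79 to 13.81 in the controls and 15.60 in Salv CKO, neural tube markers (4 of 8 rose) to 12.43 to 12.65 and 13.68 to 13.71, and endoderm, liver bud and yolk sac markers (4 of 8 rose) to 11.58 to 11.76 and 13.03. Epicardial markers (2 of 6 rose) summed to 10.22 to 10.28 and 11.09 to 11.25, with Wt1, Tcf21 and Upk1b above background on no array, as were Foxd3, Myf5 and Emr1 of the other lists. These sums follow their brightest genes: Crabp1 alone read 13.72, 13.70, 15.53 and 15.53 in the neural crest list, where Ednrb did not pass the test (8.79, 8.92, 8.60 and 8.82), and Tcf15 read 8.60, 8.38, 11.58 and 11.55 in the somite list. In the neural tube list Zic1 read 2.35, 5.81, 12.21 and 12.00, while the bright Olig2 (12.27, 12.53, 12.20 and 12.38) and Pax6 did not pass the test. Alb of the endoderm list read 5.99, 8.54, 6.48 and 6.65 and was not called. Cushion mesenchyme markers (4 of 9 rose, 1 fell) summed to 13.84 to 13.91 and 14.25 to 14.28. Endothelial markers (5 of 9 fell) summed to 14.63 to 14.70 and 13.88 to 13.92. Cardiac muscle markers (4 of 9 fell) summed to 18.13 to 18.27 and 17.90 to 17.94. Red cell markers (2 of 5 fell) summed to 16.93 to 16.94 and 16.67 to 16.68, and platelet and macrophage markers (2 of 7 fell) to 10.76 to 11.02 and 10.10 to 10.15. Some muscle and red cell markers read near 15.95, where values repeat. Actc1 read 15.84, 15.95, 15.95 and 15.95, Myh6 and Myl2 both 15.95 on control 1, and Hba-x 15.90 to 15.95. Changes in such bright genes may not show in the sums, and whether they had reached the array's ceiling was not tested. The 4 called muscle genes, Nkx2-5, Ttn, Tnni1 and Myh6, fell by 1.61, 1.41, 0.89 and 0.67. The part of these shifts in the levels of Adamts18, Mmp15, Mmp23 and the other proteases was not tested. In such bulk tissue, more or fewer cells of a type and more or less RNA per cell cannot be told apart. The amount of tissue other than heart in each pool was not measured, so it cannot be told apart from genotype here.

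**Figure D4:**
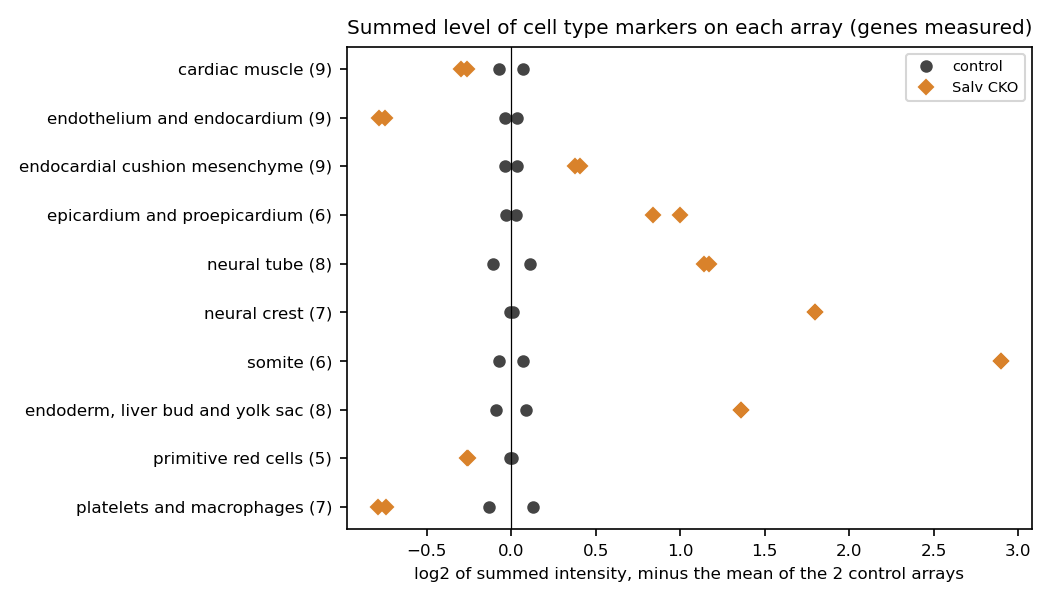
Summed intensity of each marker list on each array, as log2 minus the mean of the 2 control arrays (horizontal axis). The number of genes measured follows each name. Circles are control and diamonds Salv CKO arrays, and a sum follows the brightest genes of its list. Somite, neural and endoderm lists lie right of the controls on both Salv CKO arrays, and endothelial and platelet lists lie left.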

How the data were processed

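Whole E9.5 hearts of 2 control and 2 Salv CKO pools were grouped by their array titles. The deposited values are linear probe intensities from Cy5 one-colour arrays, per the labels; the scanner, background method and scaling stay unknown here, and 3.37 to 5.99% of values lay below 0. The annotation names 1 gene for 21020 of 29922 probes and none for 8902. Intensities were quantile normalised, floored at 1 and log2 transformed in R 4.3.3, with the probe of highest mean kept per gene, and compared with limma 3.58.1 (lmFit, eBayes with an intensity trend, Benjamini-Hochberg at 0.05). Named genes were those called, those differing by at least 1 and above background on both arrays of a group, the Timp genes and a set with known roles; pathway genes were those called, up to 4 per list. The other members named, and Reck, Vcan, Hspg2 and Col3a1, were added after values were seen. Members, lists and tests were chosen with earlier results of these data known. Adam genes were split by textbook expression, since no protein sequences were used here. Promoters are from the RefSeq table of GRCm38.p6. Precision is limited by having 4 arrays. The fit was also run on data simulated from its own fitted spread, with changes placed only in brighter genes. That run cannot check the calls made here, and dim genes such as Adamts18 were outside it. Scaling, floor, filter, probe choice, moderation, left-out arrays and a replicate block were varied.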

Additional observations from a re-analysis of the deposited data

How the results depend on the processing

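Members called higher and lower (1 and 2) numbered 1 and 11 with values as deposited, 1 and 3 with median centring, 2 and 2 with the 75th percentile, 0 and 0 with the floor of 16, 0 and 1 (Adamtsl4) with the floor of 64, 4 and 5 with genes above background on at least 2 arrays, 0 and 2 with the mean of probes, 0 and 0 without the intensity trend and 3 and 5 with robust moderation. With an array left out both ranged from 0 to 0, and limma called none of the 16675 genes; members at an unadjusted p under 0.05 then numbered 7 to 12, and 11, 10 and 14 with floors of 16 and 64 and without the trend. The replicate block gave 1 and 3 (Mmp16; Mmp15, Mmp23 and Timp1); same-numbered arrays share only a number, with deviations correlating at 0.17. The members' median difference of -0.08 became -0.47 as deposited and -0.20 with median centring, where that of all genes was -0.44 and -0.17.

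Regulators and substrates called higher and lower (4 and 15) numbered 1 and 24 as deposited, 1 and 15 centred, 3 and 15 with the 75th percentile, 0 and 2 and 0 and 4 with floors of 16 and 64, 6 and 17 with the filter and with robust moderation, 3 and 15 with the mean of probes, 0 and 0 without the trend, 5 and 17 with the block, and 0 to 0 with an array left out. As deposited, Adam12 (-0.10), Adam15 (-0.40), Adam17 (-0.43) and Adamts9 (-0.36) turned sign; centred, Adam15 (-0.13), Adam17 (-0.16) and Adamts9 (-0.086); with the 75th percentile, Mmp9 (0.053) and Adam17 (-0.019); with the mean of probes, Adam10 (0.43), Adamts5 (0.0085), Timp3 (0.080) and Mmp24 (0.12). These probe means include dimmer probes that differed by 1.05 (Adam10), 0.74 and 0.03 (Adamts5), 0.41 (Timp3) and 1.10 (Mmp24). What turned the other signs was not tested. With an array left out, differences ranged from -0.18 to 2.64 for Adam8, from -0.066 to 0.069 for Adamts9 and from -0.069 to 0.244 for Adam15. The floor of 64 shrank dim members: Adamts20 to 0.37, Adam4 to 0.15, Adam8 to 0.22, Adam29 to -0.32 and Mmp24 to -0.12. At floors, differences of exactly 0 (Adamts4, Mmp11, Adam24) have no sign and are not listed. Having 2 pools per group limits what can be detected.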
